A study of Mus musculus with 21 samples.

Results

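The subject here is a set of 10 genes for AP-1 and immediate early transcription factors (Fos, Fosb, Fosl1, Fosl2, Jun, Junb, Atf3, Egr1, Nr4a1 and Nr4a3), measured in myeloid cells sorted from the mouse brain after controlled cortical impact (CCI), a model of traumatic brain injury. The members were chosen by symbol, and each matched 1 row of the 45706 gene identifiers in the count table. The bulk RNA-seq libraries formed 7 groups of 3, all from male mice aged 17 to 24 weeks on the C57BL/6 background. Wildtype (WT) microglia, sorted as CD45lowCD11b+ cells, came from sham mice, which had a craniotomy without impact, and from mice at 1 d and 7 d after CCI. Fgg390-396A mice, called Fgg here, have an altered fibrinogen γ chain: the protein can clot, but the site by which it engages the leukocyte integrin CD11b/CD18 is gone, and their microglia were also taken at 1 d and 7 d. Infiltrating myeloid cells, sorted as CD45hiCD11b+ cells, came from WT and Fgg mice at 1 d. There was no Fgg sham group and no time after surgery was given for the sham group, so injury and genotype cannot be told apart in any comparison of Fgg microglia with sham. Each library held cells pooled from 2 brains after dissociation with an adult brain kit, 40000 microglia or 25000 infiltrating cells.

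AP-1 is a dimer of basic leucine zipper proteins of the Fos, Jun and Atf families. Most of its genes, like Egr1 and the Nr4a nuclear receptors, are induced within minutes to hours by growth factors, cytokines, calcium or stress through MAP kinases and the cAMP pathway, without new protein synthesis. In microglia the same genes can also be induced while the brain is dissociated and the cells are sorted, and every library here, sham included, went through that procedure.

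In GRCm38 Fosl1 (ENSMUSG00000024912) lies at chr19:5447547-5455946 on the + strand and Fosl2 (ENSMUSG00000029135) at chr5:32135801-32157842 on the + strand. Fos (ENSMUSG00000021250) lies at chr12:85473890-85477273 on the + strand and Atf3 (ENSMUSG00000026628) at chr1:191170296-191218039 on the - strand. Nr4a1 (ENSMUSG00000023034) lies at chr15:101254269-101274795 and Nr4a3 (ENSMUSG00000028341) at chr4:48045153-48086447, both on the + strand. Sequence around RefSeq start sites (GRCm38.p6) was at hand for 8 of the 10 members, all but Fosl1 and Egr1. The windows ran from 250 bases before to 50 bases after the start. The core of the cAMP response element, TGACG on either strand, was in the windows of 6 of these 8 genes, against 23% of the 27025 genes with a window. The stretches below, written 5′ to 3′ on the strand of the gene with each core motif in capitals, show how the motifs are placed before the starts of the 5 genes in which they lie outside annotated exons.
Fos (chr12:85473750-85473869, + strand, before the gene): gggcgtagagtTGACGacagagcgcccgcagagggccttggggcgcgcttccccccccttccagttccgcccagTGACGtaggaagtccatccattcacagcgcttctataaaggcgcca
Fosb (chr7:19310086-19310125, - strand, before the gene): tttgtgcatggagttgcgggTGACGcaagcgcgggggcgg
Junb (chr8:84978834-84978873, - strand, before the gene): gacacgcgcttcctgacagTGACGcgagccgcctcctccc
Nr4a1 (chr15:101266606-101266815, + strand, intronic to longer transcripts of the gene): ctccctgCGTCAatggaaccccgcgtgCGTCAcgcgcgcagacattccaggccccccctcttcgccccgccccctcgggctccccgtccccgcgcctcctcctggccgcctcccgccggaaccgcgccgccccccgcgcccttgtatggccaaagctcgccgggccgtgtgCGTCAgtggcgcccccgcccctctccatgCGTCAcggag
Nr4a3 (chr4:48045065-48045114, + strand, before the gene): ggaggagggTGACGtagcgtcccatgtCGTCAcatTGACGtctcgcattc
The stretch of Nr4a1 held 4 core motifs, that of Nr4a3 held 3 and that of Fos held 2. The whole element TGACGTCA, the AP-1 site TGACTCA, the Nr4a site AAAGGTCA, the Egr site GCGTGGGCG and the CArG box were in 0 of the 8 windows, and they were in 2.03%, 5.95%, 1.7%, 0.707% and 1.81% of genes with a window. The TATA box TATAAA was in 2 of 8 windows, against 15.7% of genes. These matches are letters in a window and were not tied to binding. Sites outside the windows, and any site of Fosl1 or Egr1, were not searched.

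The libraries held 18896957 to 51875767 scaled counts. Ribosomal RNA genes took 43.0% to 58.5% of them, and 3 counts corresponded to 0.0448 to 0.158 counts per 1000000 counts of a library (CPM). Levels are given as CPM of counts from which gene length had been divided out, so they can also be compared between genes. The sorted populations carried their markers. Summed levels of 11 microglia markers were 3408 to 14919 CPM in the microglia libraries and 542 to 1449 CPM in the infiltrating cells, and 10 monocyte markers summed to 7.62 to 151 CPM and to 2036 to 2377 CPM. Lymphocyte markers stayed at or under 0.526 CPM in microglia. Neutrophil markers were also present, at 2.14 to 807 CPM in microglia and 2554 to 13225 CPM in infiltrating cells. Within the microglia libraries these sums differed between groups. Microglia markers summed to 13286 to 14919 CPM in sham and to 3408 to 5609 CPM in WT microglia at 1 d. Monocyte markers summed to 7.62 to 54.8 CPM in sham and to 89.7 to 151 CPM in WT microglia at 1 d. In Fgg microglia at 1 d the values were 6449 to 8311 CPM and 33.8 to 104 CPM. The part of cell mixture in the changes from sham was not tested. In bulk libraries, fewer cells of a type and less RNA per cell cannot be told apart.

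One library stood apart for these genes. In sham replicate 1 the 10 members summed to 723 CPM, against 95.9 and 98.7 CPM in sham replicates 2 and 3. Egr1, a zinc finger factor of the early growth response, was at 359 CPM in that library and at 20.9 and 17.1 CPM in the others, 18.9 times their mean. Fosb was 15.3 times, Fos 14.4 times, Jun 4.18 times and Junb 3.35 times the mean of the other sham libraries. Nr4a3 went the other way, with 2 counts in sham replicate 1 and 27 and 30 counts in the others. The 31 other immediate early genes summed to 1801 CPM there, against 828 and 928 CPM. The 14 heat shock genes did not share this pattern, with 1089 CPM in replicate 1 and 994 and 1778 CPM in the others. The same library was lowest for neutrophil markers (2.14 CPM against 88.6 and 633 CPM) and for markers of border macrophages (4.91 CPM against 118 and 249 CPM). The part of dissociation, sorting or cell mixture in this library was not tested. Values without it are given for some comparisons with sham, and results given without such values rest on all sham libraries.

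**Figure D1:**
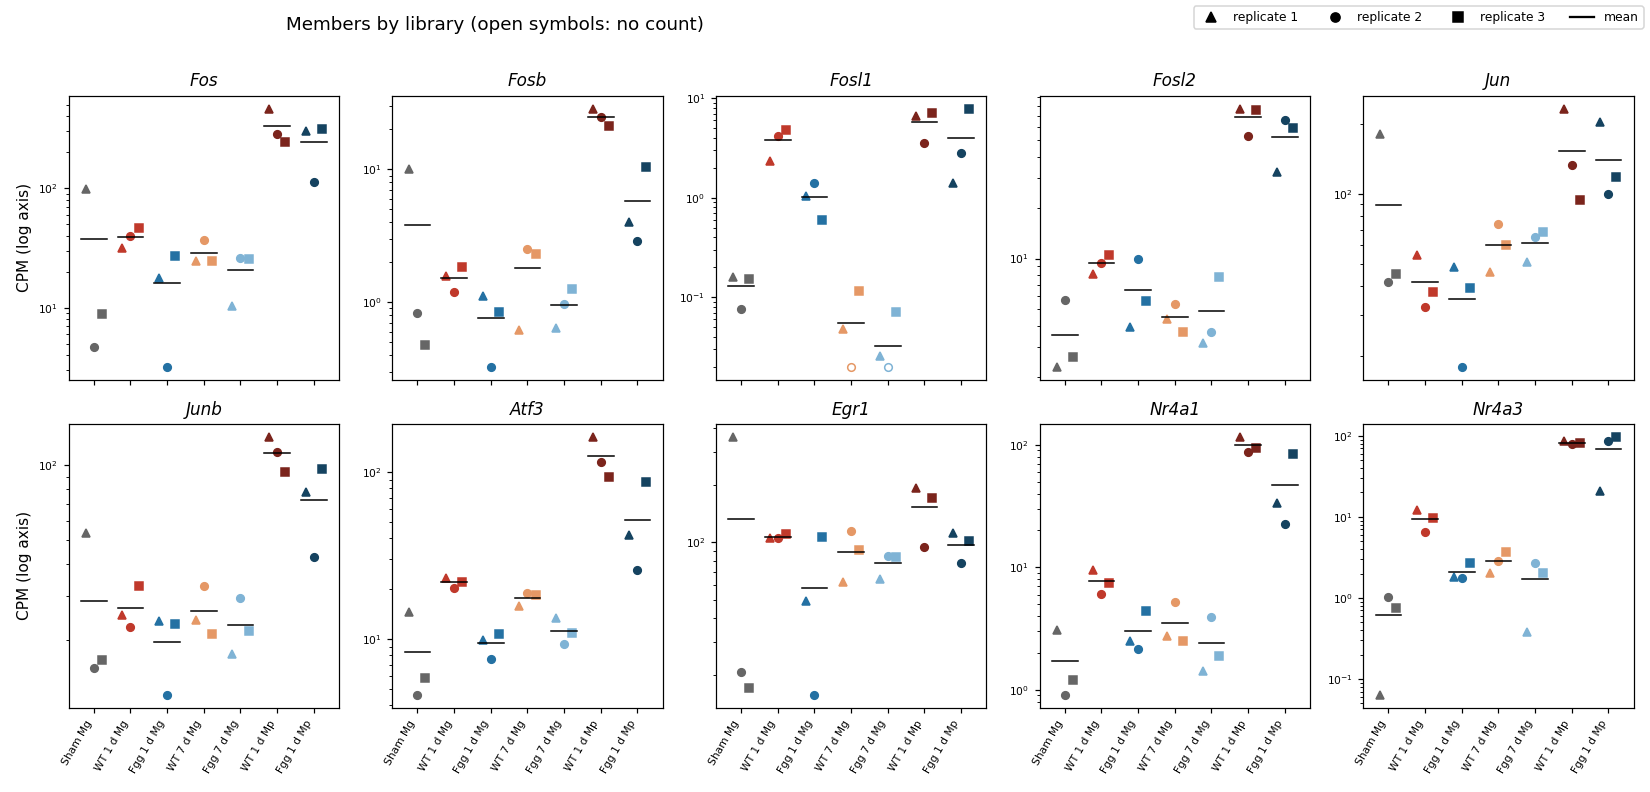
Level of each of the 10 members in every library, in CPM on log axes with a range of their own in each panel, by group (Mg, microglia; Mp, infiltrating myeloid cells; symbols mark replicates, lines mark the mean of 3 and open symbols mark no count). Sham replicate 1 lies above the other sham libraries for Fos, Fosb, Jun, Junb and Egr1, and the infiltrating cells lie highest for most members.

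In WT microglia at 1 d after injury, 5 of the 10 members were higher than in sham and 0 were lower (edgeR quasi-likelihood test, log2 fold change beyond 1 and adjusted p under 0.05), whereas 12.3% of all 23815 genes tested passed, 8.05% upward and 4.21% downward. The 5 were Fosl1, Nr4a3, Nr4a1, Fosl2 and Atf3, and for each every injured library was above every sham library, which held for 16.8% of genes. The classical members Fos, Fosb, Jun, Junb and Egr1 did not pass. By DESeq2 6 members passed, 5 higher and Jun lower (log2 fold change -1.21), and 16.4% of genes passed. The median log2 fold change of the members was 0.73 and that of all genes 0.00. Shares of all genes include genes with as few as 5 counts over all libraries. With a stricter filter on low counts (filterByExpr in edgeR), 3167 of 17102 genes passed, 1970 of them upward, and the median was -0.089.

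Among the Fos family, Fosl1, which encodes the Fra-1 protein, had 5, 2 and 6 counts in the sham libraries and 61, 115 and 124 counts in WT microglia at 1 d, or 2.33, 4.16 and 4.84 CPM. Every injured library was above every sham library, and the fitted log2 fold change was 4.81 ± 0.81 (SE, adjusted p = 0.00024). Fosl2, which encodes Fra-2, was at 2.29, 5.69 and 2.61 CPM in sham and at 8.13, 9.44 and 10.5 CPM at 1 d, a log2 fold change of 1.41 ± 0.40 (SE, adjusted p = 0.017). Without sham replicate 1 Fosl2 no longer passed (1.18 ± 0.44, adjusted p = 0.094), and it did not without sham replicate 3 (adjusted p = 0.081) or WT replicate 3 (adjusted p = 0.052) either. Fos, which binds DNA as a dimer with a Jun protein, was at 98.5, 4.71 and 8.95 CPM in sham and at 32.0, 39.8 and 46.5 CPM at 1 d. The sham values lay on both sides of the injured ones, and the log2 fold change was 0.08 ± 0.79 (SE, adjusted p = 1.0). Against sham replicates 2 and 3 alone Fos was higher at 1 d by 2.52 ± 0.66 (SE, adjusted p = 0.015). Fosb was at 10.0, 0.835 and 0.478 CPM in sham and 1.57, 1.19 and 1.83 CPM at 1 d, and its log2 fold change was -1.30 ± 0.80 (SE) with all sham libraries and 1.23 ± 0.63 without replicate 1. Neither value passed the test.

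The Jun family did not pass in WT microglia. Jun, which can pair with itself or with a Fos protein, was at 181, 41.7 and 45.1 CPM in sham and 54.3, 32.3 and 37.7 CPM at 1 d (log2 fold change -1.11 ± 0.48, SE, adjusted p = 0.14). Without sham replicate 1 the difference was -0.07 ± 0.40 (SE, adjusted p = 1.0). Junb was at 53.5, 15.4 and 16.5 CPM in sham and 25.0, 22.4 and 32.9 CPM at 1 d, and its log2 fold change went from -0.09 to 0.74 without sham replicate 1.

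Atf3, a stress-induced repressor that dimerizes with Jun proteins, was at 14.5, 4.63 and 5.86 CPM in sham and at 23.2, 20.1 and 22.0 CPM in WT microglia at 1 d. The injured libraries lay close together and all above sham, with a log2 fold change of 1.38 ± 0.39 (SE, adjusted p = 0.017). Leaving out sham replicate 2 (adjusted p = 0.093) or sham replicate 3 (adjusted p = 0.081) ended the call, and leaving out sham replicate 1 raised the value to 2.05 ± 0.38 (SE, adjusted p = 0.001). Egr1 was at 106, 105 and 111 CPM at 1 d, between the sham library at 359 CPM and the others at 20.9 and 17.1 CPM. Its log2 fold change was -0.30 ± 0.77 (SE, adjusted p = 0.90) with all sham libraries and 2.50 ± 0.53 (SE, adjusted p = 0.003) without replicate 1.

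Nr4a1 (Nur77) and Nr4a3 (Nor1) are orphan nuclear receptors that bind DNA without a known natural ligand. Nr4a3 was at 0.0637, 1.02 and 0.754 CPM in sham and at 12.2, 6.48 and 9.76 CPM in WT microglia at 1 d, a log2 fold change of 3.95 ± 0.68 (SE, adjusted p = 0.00033). Nr4a1 was at 3.06, 0.911 and 1.21 CPM in sham and at 9.50, 6.11 and 7.45 CPM at 1 d (2.15 ± 0.51, SE, adjusted p = 0.005). Without sham replicate 1 both were still called, with log2 fold changes of 3.42 and 2.84 (adjusted p = 0.0018 for each), and the members called numbered 6 of 10, with Fos and Egr1 in place of Fosl2. In that fit 10.1% of all genes passed, 6.79% upward.

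In Fgg microglia at 1 d, Fosl1 alone of the 10 members was higher than in sham, and 0 were lower, while 6.64% of genes passed, 5.49% upward and 1.15% downward. Fosl1 had 70, 56 and 15 counts in these libraries, or 1.04, 1.41 and 0.603 CPM, all above the sham libraries (log2 fold change 2.93 ± 0.76, SE, adjusted p = 0.016). This call was lost without sham replicate 2 (adjusted p = 0.08), without Fgg replicate 2 (adjusted p = 0.066) and when only the groups compared were fitted (adjusted p = 0.051). Nr4a3 was at 1.80, 1.76 and 2.69 CPM, also above every sham library (15.7% of genes lay above in this way), and did not pass (1.76 ± 0.67, SE, adjusted p = 0.12). Fosb and Jun had log2 fold changes of -2.29 and -1.35 (adjusted p = 0.096 for each). By DESeq2 both were called lower, at -2.42 (adjusted p = 0.017) and -1.47 (adjusted p = 0.016), as were 3.34% of genes. Without sham replicate 2 or 3 edgeR called them too, with Fosb at -2.76 and -2.82 and Jun at -1.69 and -1.67, and Fosl2 was called higher without sham replicate 2 (1.40, adjusted p = 0.05). Without sham replicate 1 Fosb was at 0.25 and Jun at -0.30, neither called. Egr1 went from -1.21 to 1.59 without that library (adjusted p = 0.065).

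At 7 d after injury 0 of the 10 members passed against sham in WT or in Fgg microglia (edgeR), while 2.02% and 0.663% of genes passed. In each comparison 2 members had an unadjusted p under 0.05, as did 11.7% and 7.59% of genes, and DESeq2 called 1 member (Nr4a3, 2.21, adjusted p = 0.012) in WT and 0 in Fgg microglia, with 3.46% and 1.46% of genes. Nr4a3 was at 2.01, 2.84 and 3.71 CPM in WT microglia at 7 d, all above sham, with a log2 fold change of 2.23 ± 0.68 (SE, adjusted p = 0.10). Atf3 was at 15.7, 18.8 and 18.3 CPM, also above every sham library (10.5% of genes lay above in this way; 1.08 ± 0.39, SE, adjusted p = 0.21). Without sham replicate 1, Atf3 (1.74, adjusted p = 0.022) and Egr1 (2.24, adjusted p = 0.035) were called higher in WT microglia at 7 d, when 1.2% of genes passed. In Fgg microglia at 7 d Fosl1 alone lay wholly below sham in CPM (-1.91 ± 0.95, SE, adjusted p = 0.66), against 7.2% of genes. It had 1, 0 and 2 counts there and 5, 2 and 6 counts in sham. The highest Fgg library (0.0717 CPM) and the lowest sham library (0.0759 CPM) held 2 counts each, so library size alone set them apart. Egr1 was at -0.77 and Fos at -0.85 in Fgg microglia at 7 d (log2 fold change). With 1 library left out, Egr1 ranged from -1.29 to 2.03 and Fos from -1.38 to 1.59 there. Neither passed in any of these fits.

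**Figure D2:**
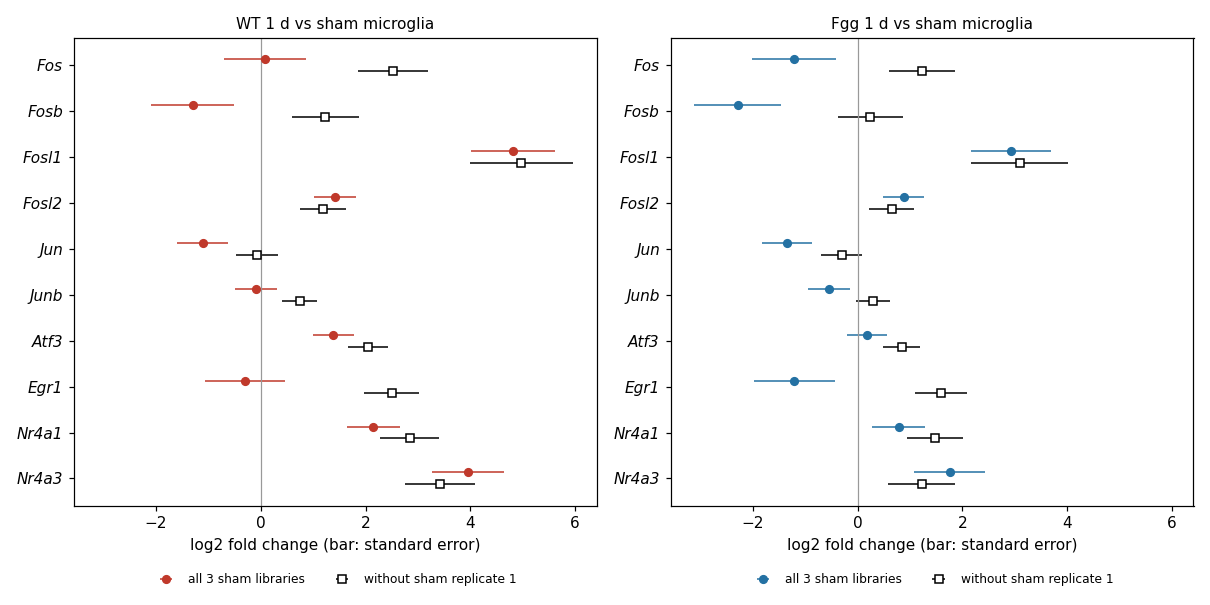
Log2 fold change of each member at 1 d after injury against sham microglia, for WT (left) and Fgg (right), with standard errors as bars, fitted with all 3 sham libraries (filled) and without sham replicate 1 (open). For Egr1, Fosb and Junb in WT the values move from below to above 0, and for Fosl1, Atf3, Nr4a1 and Nr4a3 they stay above 0.

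From 1 d to 7 d, Fosl1 fell in both genotypes, and no other member passed with the main test (7.06% of genes passed in WT, 4.38% downward, and 3.54% in Fgg, 2.88% downward). Fosl1 had 1, 0 and 3 counts in WT and 1, 0 and 2 counts in Fgg microglia at 7 d. The summed counts per effective library size were 67.4 times higher at 1 d than at 7 d in WT (95% exact interval 26.1 to 249) and 33.8 times higher in Fgg (11.3 to 166). These intervals treat the rounded scaled counts as if they were read counts. They therefore only approximate counting error, and they leave out the spread between libraries. The edgeR test gave adjusted p = 0.00019 in WT and 0.0024 in Fgg. In WT microglia the libraries at 7 d lay wholly below those at 1 d for Fosl1, Fosl2, Atf3, Nr4a1 and Nr4a3, 5 of 10 members against 14.2% of genes. For Nr4a3 the log2 fold change was -1.72 ± 0.60 (SE, adjusted p = 0.08), and it was called with a replicate block (-1.89, adjusted p = 0.036), when only the groups compared were fitted (-1.75, adjusted p = 0.012) and by DESeq2 (-1.65, adjusted p = 0.038). Fosl2 was also called when only the groups compared were fitted (-1.09, adjusted p = 0.023). Of all genes 4.36%, 5.66% and 4.76% were called lower with the block, in the fit to the groups compared and by DESeq2. In Fgg microglia Fosl1 alone lay wholly below (14% of genes). Jun had the highest value from 1 d to 7 d in both genotypes, at 0.54 ± 0.48 (SE) in WT and 0.80 ± 0.48 in Fgg, and passed in neither, although its Fgg libraries at 7 d all lay above those at 1 d (13.3% of genes).

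The study also asked whether Fgg cells respond differently. At 1 d all 10 members had a lower fitted level in Fgg than in WT microglia, with a median log2 fold change of -1.10, but 0 passed (edgeR, adjusted p under 0.1 for genotype). Of all genes 42.7% lay below 0, the median of all genes was 0.00 and 0.0546% passed. An unadjusted p under 0.05 was reached by 4 members (5.07% of genes), and DESeq2 called 1 member and 0.437% of genes. For Fos, Fosb, Fosl1, Atf3, Nr4a1 and Nr4a3 every Fgg library lay below every WT library, 6 of 10 members against 2.99% of genes. Nr4a3 differed most, at 9.47 ± 2.86 CPM in WT and 2.09 ± 0.53 CPM in Fgg (SD, n = 3 each). Its log2 fold change was -2.19 ± 0.61 (SE), with adjusted p = 0.71 by edgeR and 0.064 by DESeq2, which called it. Atf3 was at 21.8 ± 1.58 CPM in WT and 9.41 ± 1.63 CPM in Fgg (SD, n = 3 each), a log2 fold change of -1.21 ± 0.39 (SE, adjusted p = 0.81). Fosl1 had -1.88 ± 0.68, Nr4a1 -1.37 ± 0.49 and Fos -1.29 ± 0.80 (log2 fold change ± SE, adjusted p = 0.89 for each). Jun was nearest 0, with a log2 fold change of -0.24 ± 0.48 (SE).

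Fgg replicate 2 held the lowest value among Fgg microglia at 1 d for 8 members, among them Fos (3.22 CPM against 17.9 and 27.4 CPM) and Egr1 (15.8 CPM against 49.3 and 107 CPM). Marker levels in the same libraries were as follows. Neutrophil markers summed to 124 to 807 CPM in WT and 22.7 to 338 CPM in Fgg microglia, monocyte markers to 89.7 to 151 and 33.8 to 104 CPM, and microglia markers to 3408 to 5609 and 6449 to 8311 CPM. The ranges of the genotypes overlapped for the neutrophil and monocyte markers and did not for the microglia markers. Heat shock genes summed to 3464 to 4761 CPM in WT and 2665 to 4828 CPM in Fgg and overlapped. The part of these in the difference between genotypes was not tested.

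At 7 d, 8 of 10 members had a lower fitted level in Fgg microglia (45.9% of genes), with a median log2 fold change of -0.51, and 0 passed. No member reached an unadjusted p under 0.05 (3.34% of genes), DESeq2 called 0, and 0.0378% of genes passed. Atf3 was at 15.7, 18.8 and 18.3 CPM in WT and 13.4, 9.33 and 10.8 CPM in Fgg and was the 1 member whose libraries did not overlap (log2 fold change -0.65 ± 0.38, SE, adjusted p = 1.0), against 5.28% of genes. The difference between the genotype effects at 7 d and 1 d was above 0 for all 10 members (52% of genes lay below 0) and passed for 0 of them by edgeR and for 0% of genes. At an unadjusted p under 0.05 there were 0 members and 2.74% of genes, and DESeq2 called 0 members, so a change of the genotype effect with time was not shown.

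In infiltrating myeloid cells at 1 d, all 10 members again had a lower fitted level in Fgg (46.9% of genes), with a median log2 fold change of -0.57. By edgeR 0 passed, against 0.453% of genes, and 3 had an unadjusted p under 0.05 (11.5% of genes). DESeq2 called 1 member and 3.53% of genes. Atf3 was at 162, 115 and 93.8 CPM in WT and 41.7, 26.0 and 86.7 CPM in Fgg, without overlap. Its log2 fold change was -1.27 ± 0.38 (SE, adjusted p = 0.21 by edgeR and 0.046 by DESeq2). Fosb was at 28.8, 24.8 and 21.4 CPM in WT and 4.02, 2.91 and 10.4 CPM in Fgg (-2.11 ± 0.79, SE, adjusted p = 0.32). Nr4a1 was at 117, 87.5 and 94.8 CPM in WT and 33.6, 22.7 and 84.7 CPM in Fgg (-1.08 ± 0.47, SE, adjusted p = 0.39). These 3 members did not overlap between genotypes, against 4.85% of genes. Fgg replicate 3 was the closest to WT for each of them, and without it Atf3 (-1.87, adjusted p = 0.021) and Nr4a1 (-1.83, adjusted p = 0.065) were called lower, along with 1.74% of all genes (2.71% called in either direction). Neutrophil markers summed to 3509 to 13225 CPM in WT and 2554 to 5860 CPM in Fgg infiltrating cells, and their part in the difference was not tested.

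Nr4a3, with the lowest genotype value in microglia, was not lower in this way in infiltrating cells. There it was at 82.4 ± 3.19 CPM in WT and 68.2 ± 41.5 CPM in Fgg (SD, n = 3 each), with 1 Fgg library at 20.6 CPM and the others at 86.3 and 97.5 CPM. The genotype effect in infiltrating cells minus that in microglia was 1.92 ± 0.82 on the log2 scale (SE, adjusted p = 0.55). Of the 10 members 0 passed this test of the difference, 1 had an unadjusted p under 0.05 (8.37% of genes) and DESeq2 called 0, while 0.0462% of genes passed.

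**Figure D3:**
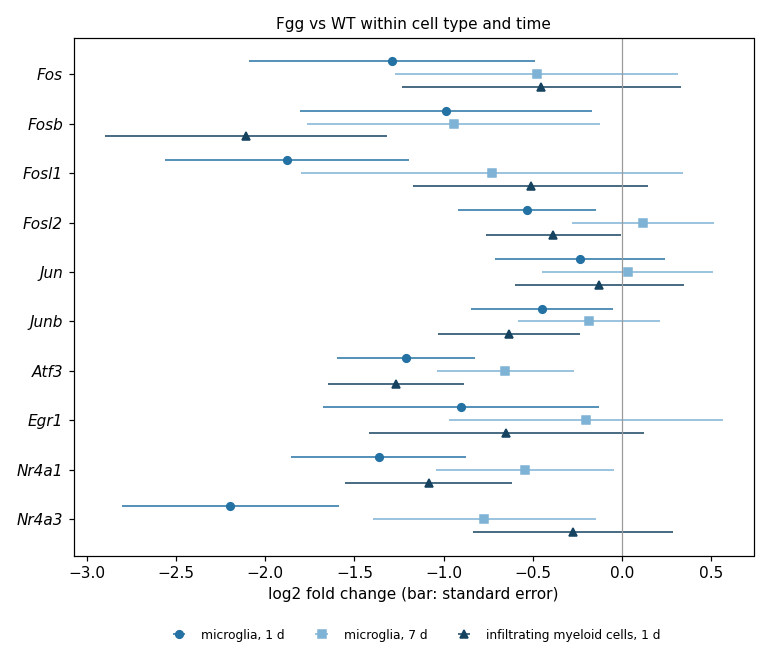
Log2 fold change of Fgg against WT for each member in microglia at 1 d, microglia at 7 d and infiltrating myeloid cells at 1 d, with standard errors as bars. At 1 d all 10 values lie below 0 in both cell types, and none passed by edgeR.

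Infiltrating myeloid cells and microglia were then compared at 1 d. In WT mice 8 of 10 members were higher in infiltrating myeloid cells than in microglia and 0 were lower (11.9% of genes passed, 5.61% upward), with a median log2 fold change of 2.69. For the same 8 members the libraries did not overlap (13.6% of genes). In Fgg mice 9 of 10 were higher and 0 lower (16.7% of genes passed, 6.96% upward), with a median of 2.68 beside -0.13 for all genes, and 8 did not overlap (12% of genes). Nr4a1 was at 99.6 ± 15.1 CPM in WT infiltrating cells and 7.69 ± 1.71 CPM in WT microglia (SD, n = 3 each), a log2 fold change of 3.70 ± 0.52 (SE, adjusted p = 4.5e-05). Fos was at 466, 285 and 246 CPM in WT and 303, 113 and 313 CPM in Fgg infiltrating cells. All these libraries lay above all microglia libraries, the highest of which was sham replicate 1 at 98.5 CPM, and the log2 fold changes were 3.08 ± 0.85 (SE, adjusted p = 0.016) in WT and 3.91 ± 0.88 (SE, adjusted p = 0.0032) in Fgg. The call in WT was lost without WT microglia replicate 1 (adjusted p = 0.066) or 2 (adjusted p = 0.057). Fosb was higher by 4.03 ± 0.87 in WT and 2.90 ± 0.84 in Fgg, and Fosl2 by 2.87 ± 0.41 and 3.02 ± 0.41 (log2 fold change ± SE). Jun (1.88 and 1.99), Junb (2.07 and 1.88) and Atf3 (2.51 and 2.45) were higher in infiltrating cells of both genotypes (log2 fold change, WT first). Jun in WT was not called without microglia replicate 2 (adjusted p = 0.053) or infiltrating replicate 1 (adjusted p = 0.07), and Fosb in Fgg was not called without microglia replicate 2 (adjusted p = 0.075) or infiltrating replicate 3 (adjusted p = 0.082).

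Fosl1 and Egr1 were apart from this pattern. Fosl1 was at 6.60, 3.58 and 7.12 CPM in WT infiltrating cells, overlapping the 2.33, 4.16 and 4.84 CPM of WT microglia (0.61 ± 0.66, SE, adjusted p = 0.60). In Fgg mice Fosl1 passed (1.98 ± 0.69, SE, adjusted p = 0.045), with infiltrating libraries at 1.40, 2.81 and 7.90 CPM that overlapped the microglia, and it did not pass with a replicate block (adjusted p = 0.093) or when only the groups compared were fitted (adjusted p = 0.11). Nor did it pass without any 1 of the 3 Fgg microglia libraries (adjusted p = 0.064 to 0.15) or infiltrating replicate 3 (1.04, adjusted p = 0.30). Egr1 was at 153 ± 51.7 CPM in WT infiltrating cells and 107 ± 3.37 CPM in WT microglia (SD, n = 3 each), and passed in neither genotype (adjusted p = 0.75 and 0.52). The infiltrating libraries held monocyte, neutrophil and border macrophage markers, and the cells that carried the members were not resolved. Border macrophage markers summed to 1348 to 2219 CPM in infiltrating cells and to 4.91 to 252 CPM in microglia.

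In order of level, the WT infiltrating cells had the highest mean for all 10 members. Fgg infiltrating cells came next for 9 members, and sham microglia came next for Egr1, through replicate 1 alone. Atf3 had no overlap between WT infiltrating, Fgg infiltrating, WT 1 d microglia, WT 7 d microglia and Fgg 7 d microglia in that order, while Fgg 7 d, Fgg 1 d and sham microglia overlapped. For Jun, Junb and Egr1 every neighbouring pair of groups overlapped. The order was set by the means of these same values, and the share of all genes with such an order was not computed. Within WT microglia at 1 d, Egr1 was the most abundant member at 107 CPM, followed by Jun at 41.5 and Fos at 39.4 CPM, and Fosb was the least at 1.53 CPM. In WT infiltrating cells Fos was the most abundant, at 332 ± 118 CPM (SD, n = 3).

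Other genes of the pathway were taken from lists. Of 20 other AP-1 and related leucine zipper genes, 3 were higher and 2 lower in WT microglia at 1 d than in sham, where 8.05% of all genes were higher and 4.21% lower. Maff (log2 fold change 3.18), a small Maf protein, and Atf5 (2.58) were the highest of these, and Bach2 (-2.40), a repressor, and Maf (-1.80) the lowest. Their median was -0.22. Of 31 other immediate early genes 9 were higher and 3 lower, with a median of 0.98. The highest were the kinase Plk2 (5.05), the phosphatase Dusp5 (4.36), the stress sensor Gadd45b (4.11) and Id1 (3.13), and Rhob (-1.86), Btg2 (-1.70) and Dusp6 (-1.41) were lower. Without sham replicate 1 the counts were 10 and 2. In Fgg microglia at 1 d 5 were higher and 2 lower (5.49% and 1.15% of all genes), with Plk2 at 3.46, Dusp5 at 3.40 and Gadd45b at 2.94. At 7 d Gadd45b was still higher than sham in WT (3.12) and Fgg (2.70) microglia.

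Of 26 upstream kinases and factors, 2 were higher and 3 lower in WT microglia at 1 d, against 8.05% and 4.21% of all genes. Crem, a cAMP-responsive factor, had a log2 fold change of 2.44, and Map2k6, a p38 kinase activator, -2.45. Of 24 genes described as AP-1 targets, 16 were higher in WT microglia at 1 d (median 3.36), 14 in Fgg microglia at 1 d (1.93), 7 in WT (1.22) and 4 in Fgg microglia (0.87) at 7 d, and in none of these 4 comparisons did a target pass as lower. Of all genes 8.05%, 5.49%, 1.93% and 0.63% were called higher in these 4 comparisons. The list of targets was chosen with earlier results of these data known, and regulation of these genes by AP-1 was not tested. Summed targets were at 91.3 to 145 CPM in sham and 1116 to 1783 CPM in WT microglia at 1 d. In WT infiltrating cells they were at 7210 to 9283 CPM, and the part of cell mixture in these changes was not tested. Ptgs2, the inducible cyclooxygenase, was at 0.18 CPM in sham, 36.1 CPM in WT and 7.94 CPM in Fgg microglia at 1 d, and was lower in Fgg than WT (-2.20 ± 0.40, SE, adjusted p = 0.063). Inhba, the activin A subunit, was at 0.01 CPM in sham, 4.36 CPM in WT and 0.13 CPM in Fgg microglia (Fgg against WT -4.94 ± 0.96, SE, adjusted p = 0.099). Its sham and Fgg levels were near or below the level of 3 counts (0.0448 to 0.158 CPM), and its adjusted p was barely under 0.1. Ptgs2 and Inhba were the 2 of 24 targets that passed between genotypes in microglia at 1 d, against 0.0546% of all genes. By DESeq2 5 of the 24 targets and 0.437% of all genes passed. Of the 31 other immediate early genes 0 passed between genotypes in microglia at 1 d (7 at an unadjusted p under 0.05, 0 by DESeq2), and 5 lay above 0, with a median of -0.57.

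Between cell types at 1 d, 16 of the 31 other immediate early genes were higher and 1 lower in WT infiltrating cells than in microglia, and 18 and 0 in Fgg. Of all genes 5.61% were higher and 6.3% lower in WT, and 6.96% and 9.7% in Fgg. The nuclear receptor Nr4a2, the third of its family, had log2 fold changes of 4.91 in WT and 4.49 in Fgg, and the kinase Sik1 4.47 and 4.44. Heat shock genes behaved differently. In microglia at 1 d 7 of 14 were higher than in sham in WT and 7 in Fgg, led by the chaperones Hspd1 (2.22 and 2.05) and Hsp90aa1 (2.12 and 1.96), while Hspa1a had -0.63 and -0.16 and did not pass. Of all genes 8.05% were higher in WT and 5.49% in Fgg. Between cell types 0 of 14 passed in WT (4 at an unadjusted p under 0.05, 0 by DESeq2) and 0 in Fgg (4, and 1 by DESeq2). By edgeR 11.9% and 16.7% of all genes passed there. The summed heat shock level was 2665 to 4828 CPM in microglia at 1 d, 994 to 1778 CPM in sham, 1208 to 1555 CPM at 7 d and 2232 to 3540 CPM in infiltrating cells, which overlapped the microglia at 1 d. The part of cell isolation in the member levels was not tested.

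**Figure D4:**
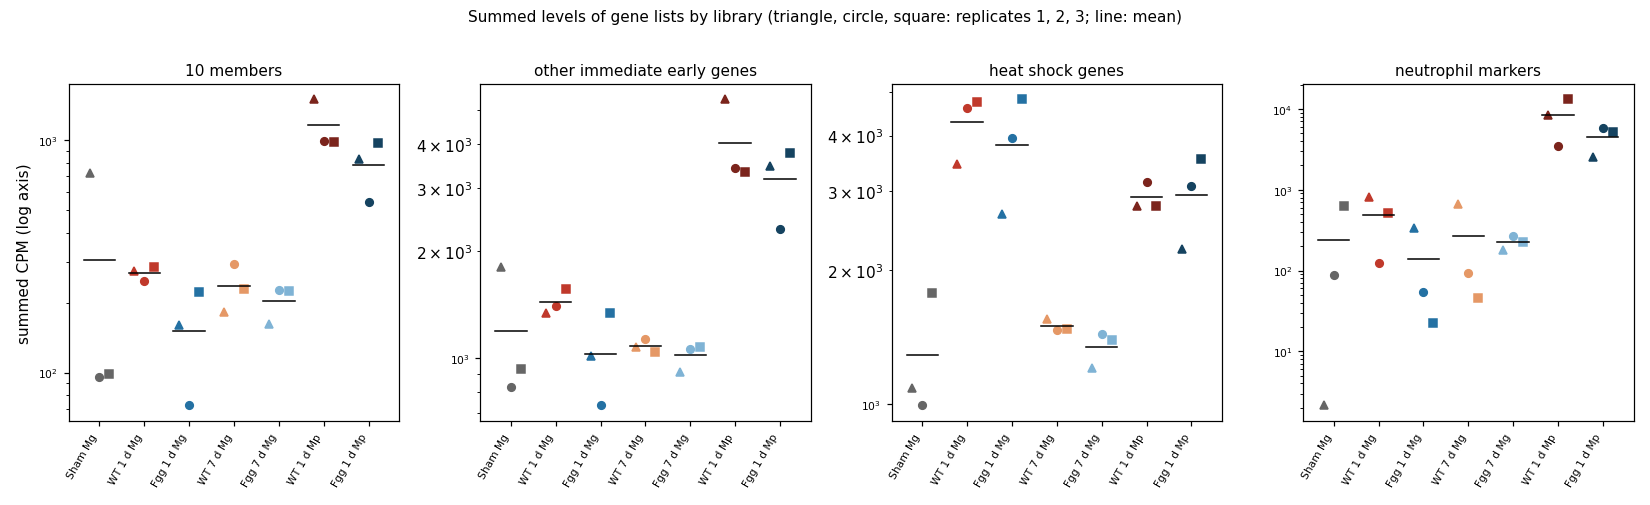
Summed CPM of the 10 members, of the other immediate early genes, of the heat shock genes and of the neutrophil markers in every library, on log axes, by group (Mg, microglia; Mp, infiltrating myeloid cells; symbols mark replicates and lines the mean of 3). Sham replicate 1 is highest among sham libraries in the first pair of panels and lowest for neutrophil markers, and heat shock genes are higher in microglia at 1 d than in sham or at 7 d and overlap those of the infiltrating cells.

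The members varied together to different degrees. Over the 21 libraries the Pearson correlation of log2 CPM was 0.97 for Fos with Junb, 0.96 for Atf3 with Nr4a1, 0.95 for Fosb with Junb and 0.93 for Fosl2 with Nr4a3, and 0.22 for Fosl1 with Jun, the lowest. These libraries share groups and their differences in cell type. After group means were subtracted, the 10 pairs among Fos, Fosb, Jun, Junb and Egr1 kept correlations of 0.78 to 0.93, while Nr4a3 and Fosl2 had values from -0.49 to -0.23 with each of these 5. Atf3 and Nr4a1 were also positive with each of the 5, at 0.65 to 0.78 and 0.56 to 0.84, so the 5 were not a separate block. The grouping of 5 was chosen after the values were seen, and sham replicate 1 is among the 21 points. Dusp1, the phosphatase that ends MAP kinase signalling, was among the 3 genes most like Fos (r = 0.98), Junb (0.96), Fosb (0.90) and Atf3 (0.93) of 12292 genes compared. Ier2 and Zfp36 were among those most like Fos and Egr1, with Ier2 at 0.94 and 0.80. Nr4a1 was most like Flrt3 (0.97), Pim1 (0.97) and Ier3 (0.96), Nr4a3 most like Trps1 (0.96), Fosl2 most like Antxr2 (0.98), Fosl1 most like Ywhaz (0.96) and Jun most like the histone gene Hist1h1e (0.93).

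**Figure D5:**
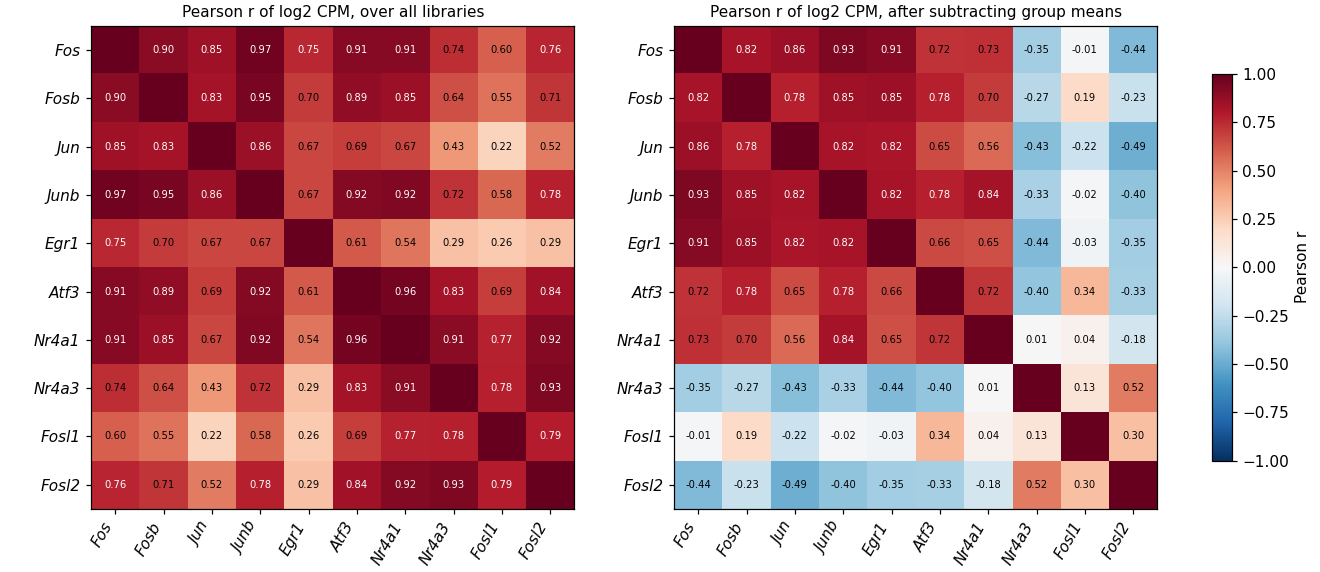
Pearson correlation of log2 CPM between members over the 21 libraries (left) and after the mean of each group was subtracted (right), with the value in each cell and colour from -1 to 1. On the right Fos, Fosb, Jun, Junb and Egr1 correlate at 0.78 to 0.93. Atf3 and Nr4a1 are positive with each of them, and Nr4a3 and Fosl2 are negative with each of them.

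Fosl1 overlaps Ccdc85b on the opposite strand over 2767 bases, Jun overlaps the antisense gene Junos over 689 bases and Junb overlaps Prdx2 over 351 bases. The library kit does not mark strand, so reads from these overlaps cannot be told apart.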

How the data were processed

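Reads were processed by the authors with the nf-core/rnaseq pipeline (Trim Galore, STAR and salmon, GRCm38), and the deposited values are estimated counts per gene, scaled by salmon from abundances so that gene length no longer affects them. They were not normalised between libraries, and 100% of values above 0 were not whole at a tolerance of 1e-06. The annotation release is not given in the sources used here. The authors analysed these counts with DESeq2 1.36.0 in R 4.2.0, per the labels.

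Values were rounded, and genes with at least 5 counts over all libraries (23815) were fitted with edgeR 4.0.16 (R 4.3.3) by the quasi-likelihood test, using all 21 libraries, a mean for each of 7 groups, TMM factors (0.735 to 1.55) and Benjamini-Hochberg adjustment over all genes tested. Calls needed a log2 fold change beyond 1 in either direction with an adjusted p below 0.05 (0.1 between genotypes), and differences of genotype effects an adjusted p below 0.1. CPM used TMM-scaled library sizes, and log2 CPM a prior count of 2. DESeq2 1.42.0, DESeq2 size factors, removal of ribosomal RNA genes, filters on low counts, fits to the groups compared, a replicate block, a stricter fold change of 1.5 and leaving out each library were alternatives. The procedure was tested on simulated data, in which no library was made to stand apart as sham replicate 1 did.

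Symbols came from GENCODE M21 (45143 of 45706 identifiers matched). The members, gene lists and tests were chosen with earlier results of these data known. Genes named are the members, up to 4 genes per direction with the largest called changes from the 2 lists of other AP-1 and other immediate early genes and up to 2 from the others, and the 3 genes most correlated with each member (mean of at least 1 CPM). Hspa1a, Nr4a2 and Sik1 in Fgg cells and Gadd45b at 7 d were given in addition. Log2 fold changes are given with standard errors (SE). With the rounded scaled counts taken as read counts, replicates of a group differed by more than sampling noise (chi-square per degree of freedom of at least 18.6). Replicate numbers are in the labels without a stated meaning. Deviations of same-numbered libraries correlated above 0.1 in every pair for Fgg against WT microglia at 1 d alone (0.10 to 0.37), where the block changed no member's call. Whether microglia and infiltrating cells came from the same animals is not given in the sources used here, so p-values measure the spread between pools.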

Additional observations from a re-analysis of the deposited data

How the results depend on the processing

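Of 194 counts of members called under alternatives, over 13 comparisons, 179 stayed within 1.5 times the reported count. For WT 1 d microglia against sham (5) the count was 3 at the stricter fold change and 3 to 6 with 1 library left out, the lowest without sham replicate 3. For Fgg 1 d microglia against sham (1) it was 3 by DESeq2, 0 when only the groups compared were fitted and 0 to 3 with 1 library left out (0 without Fgg replicate 2 and 3 without sham replicate 2 or 3). For WT 7 d microglia against sham (0) it was 1 by DESeq2 and 0 to 2 with 1 library left out (2 without sham replicate 1). For WT microglia at 7 d against 1 d (1) it was 2 by DESeq2, 2 with the replicate block and 3 when only the groups compared were fitted. For Fgg against WT it was 1 in place of 0 by DESeq2 in microglia and in infiltrating cells at 1 d, and 0 to 2 with 1 library left out in infiltrating cells (2 without Fgg replicate 3). Egr1 against sham ranged from -0.82 to 2.50 (log2 fold change) in WT microglia at 1 d and from -1.09 to 2.24 at 7 d with 1 library left out, positive without sham replicate 1. The cause was not tested. Over all genes DESeq2 called 104, 80 and 841 genes between genotypes (microglia at 1 d and 7 d and infiltrating cells) against 13, 9 and 108 by edgeR, and 825 and 347 against 481 and 158 for WT and Fgg microglia at 7 d against sham. For WT 1 d against sham it called 2009 higher and 1886 lower, against 1917 and 1003. For Fgg 1 d against sham the split was 1332 and 796 against 1308 and 274, for 7 d against 1 d it was 1292 and 1133 against 638 and 1044 in WT and 468 and 741 against 158 and 686 in Fgg. Differences of genotype effects passed for 33 and 259 genes by DESeq2 and 0 and 11 by edgeR (by time and by cell type). Of 1940 values of single members under alternatives, 22 lost and 19 gained a call with the same sign, 2 were the reversals of Egr1, and 76 uncalled values changed sign, 21 of them by more than 1 SE. The replicate block, where numbers did not pair the libraries, changed the calls of Nr4a3 and Fosl1 given above and no other. At these depths Fosl1 in sham and 7 d microglia, at 0 to 6 counts, is near the limit of 3 counts. With 3 pools a group, a p that misses the threshold does not show equal levels.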
